A study of Arabidopsis thaliana with 8 samples.

Results

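Lincomycin was compared with the plain medium in seedlings of irx3-2, an Arabidopsis thaliana mutant in IRX3, the gene for CESA7, which is 1 of the cellulose synthases that build secondary walls. The comparison rested on 4 RNA-seq libraries of whole seedlings, 2 grown with 50 µg/ml lincomycin (replicates 2 and 3) and 2 grown on MS medium without it (replicates 1 and 2), out of 8 libraries in all. A gene entered it when 2 or more of these 4 libraries held 10 or more normalized counts, which was so for 19483 of 36917 loci. All seedlings were 5 days old and had grown at 22 °C on MS medium with 1% sucrose in continuous light of 100 µmol photons. The other 4 libraries were wild-type Col-0 with and without lincomycin, 2 each, and served to test whether a response differed between the genotypes. The study asked whether defects of the secondary wall lessen what lincomycin does to young chloroplasts.

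Lincomycin blocks translation on the bacterial-type ribosomes of plastids, so that proteins encoded by the plastid genome cannot be made. A plastid that fails to develop signals back to the nucleus, and nuclear genes for photosynthesis, which depend on the transcription factors GLK1 and GLK2, are then turned down. Plastid genes have their own division of labour: photosynthesis genes are read mostly by a polymerase whose core is encoded in the plastid, and the genes for that core are read by a polymerase encoded in the nucleus.

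The 8 libraries held 15032240 to 19488440 recovered reads. Plastid loci took 20.7% and 18.8% of reads in the irx3-2 lincomycin libraries, against 58.1% and 55.2% in the irx3-2 MS libraries, and mitochondrial loci took 1.53% and 1.47% against 0.557% and 0.509%. CESA7 had 294 and 401 normalized counts in irx3-2 on lincomycin, 712 and 711 in irx3-2 on MS, 222 and 209.6 in wild type on lincomycin and 265 and 278 in wild type on MS. The transcript of the mutated gene was thus present in every irx3-2 library, and its counts on MS were higher in both irx3-2 libraries than in both wild-type libraries. Nuclear loci took 77.8% and 79.8% of reads on lincomycin against 41.4% and 44.3% on MS, so they were read more deeply on lincomycin. A single read was worth 0.710 and 0.653 normalized counts on lincomycin against 1.38 and 1.77 on MS. The lincomycin libraries also held more loci with at least 1 read, 25480 and 28863 against 22154 and 24552 on MS. The part of depth in that count was not tested. Transposable element genes summed to 18791 and 24483 normalized counts on lincomycin, against 11890 and 18119 on MS. Reads at the nuclear 18S rRNA locus AT3G41768 varied within both groups, with 107716 and 9009 normalized counts on lincomycin against 33855 and 503 on MS. Since the samples were whole seedlings, fewer cells of a type and less RNA per cell cannot be told apart. The labels do not say that libraries came from separately grown plants, so each p-value measures only the spread between these samples.

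Lincomycin changed 6848 of the 19483 genes in irx3-2, 35.1% of those tested (limma, adjusted p at most 0.05). Of these, 3206 genes were higher on lincomycin (16.5%) and 3642 were lower (18.7%). The falls were the larger changes: 2109 genes were called at least 2-fold lower (10.8%) and 1358 at least 2-fold higher (6.97%). The median log2 difference over all genes tested was 0.04. Values of the 2 lincomycin libraries and the 2 MS libraries did not overlap for 68.2% of all genes tested, so a gap between the groups is by itself common. Without lincomycin replicate 2 the test called 3899 genes, 1451 of them higher, and without lincomycin replicate 3 it called 4670, 1850 of them higher. In the authors' deposited table, 5765 of the genes tested here had an adjusted p at most 0.05, and 5718 of those were also called here with the same direction and 0 with the opposite one. The minimum of 10 normalized counts was reached only in the lincomycin libraries by 306 genes and only in the MS libraries by 566, and such genes passed through the group in which they were high.

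**Figure D1:**
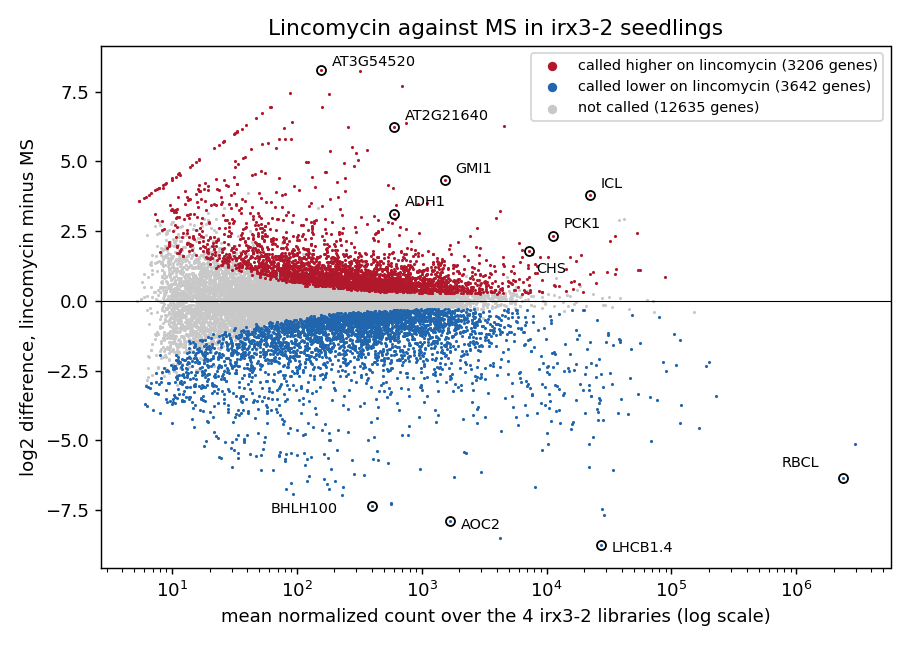
Each point is 1 of the 19483 genes tested, with its mean normalized count over the 4 irx3-2 libraries (x axis, log scale) and its log2 difference, lincomycin minus MS (y axis). The 3206 genes called higher are red, the 3642 called lower are blue and the 12635 not called are grey. The strongest falls include highly abundant genes such as RBCL and LHCB1.4, whereas the largest rises, such as AT3G54520, start from no or few reads.

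The genes that rose most were close to silent on MS. AT3G54520, a protein of unknown function, had 329 and 294 normalized counts in the lincomycin libraries, against 0 and 0 in the MS libraries. With no read in either MS library, the fold is a lower bound of at least 132-fold, taking 3 reads over the MS group as the floor. AT1G30170, a DUF295 protein of unknown function, had 579 and 700.5 normalized counts in the lincomycin libraries, against 0 and 3.54 in the MS libraries, a log2 difference of 8.23 ± 0.60 (SE; 2 libraries a group here and below; adjusted p = 2.41e-06). Among the 10 largest rises, 4 were P-loop ATPases (AT2G18193, AT2G18190, AT4G05380 and AT3G28560) and 3 were DUF295 proteins (AT1G30170, AT5G55270 and AT5G53230). AT2G18193, for example, had 1544 and 1242 normalized counts in the lincomycin libraries, against 2.75 and 10.6 in the MS libraries, and both lincomycin libraries lay far above both MS libraries. These genes rose in wild type too, and for none of these 10 did the difference between the genotypes pass the test. The 10 largest falls had another make-up: LHCB1.4, LHCB2.3, CA1 and RBCS2B serve photosynthesis, AOC2 makes a jasmonate precursor, and BHLH100 and CYP82C4 belong to the iron deficiency response.

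Photosynthesis genes fell without exception. All 20 light-harvesting antenna genes tested were lower (median log2 difference -4.29), as were all 31 nuclear genes for photosystem and electron transport proteins (median -3.67), all 20 of the Calvin-Benson cycle (median -2.81) and all 14 of photorespiration (median -2.38), where 18.7% of all genes tested were lower. LHCB1.4, an antenna protein of photosystem II, had 113 and 142 normalized counts in the lincomycin libraries, against 49064 and 59909.5 in the MS libraries, a 424-fold fall (log2 difference -8.73 ± 0.13, adjusted p = 6.75e-11). RBCS2B, a small subunit of Rubisco, had 298 and 316 normalized counts in the lincomycin libraries, against 45747 and 65318 in the MS libraries (log2 difference -7.47 ± 0.18). The fall was uneven among close relatives: the log2 difference was -7.47 for RBCS2B, -5.01 for RBCS3B and -3.73 for RBCS1A, and -8.73 for LHCB1.4, -6.05 for LHCB1.2 and -4.36 for LHCB1.3. These paralogs are similar in sequence, and how reads that match several of them were counted is not given in the sources used here, so the split between them is uncertain. Genes of chlorophyll synthesis fell less as a group, with 24 of 30 tetrapyrrole genes lower, 1 higher and a median log2 difference of -1.30. PORB, which reduces protochlorophyllide in the light, fell to 592 and 616 normalized counts on lincomycin, against 10349 and 11349.7 on MS. The single gene of that list that rose was HY2, which turns heme-derived biliverdin into the phytochrome pigment, with 356 and 305 on lincomycin against 169 and 179 on MS. PSY, the entry enzyme of carotenoid synthesis, fell to 584 and 593, against 4635 and 4329 on MS, and 14 of 16 carotenoid and isoprenoid genes fell with it.

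In the plastid genome, 2 gene lists that differ in the polymerase that mainly reads them moved mostly in opposite directions. Over all 87 plastid protein-coding genes tested, 48 were lower and 21 higher. A division of all plastid genes by polymerase was not tested. All 23 plastid-encoded photosynthesis genes were lower (median log2 difference -2.52). RBCL, the large subunit of Rubisco, had 57183 and 56733 normalized counts in the lincomycin libraries, against 4720087 and 4592430 in the MS libraries, a log2 difference of -6.35 ± 0.24 (adjusted p = 1.36e-08). Of 8 plastid genes read mainly by the nuclear-encoded polymerase, 7 were higher, with a median of 1.01. RPOB, a core subunit of the plastid-encoded polymerase, had 67025 and 50039 normalized counts in the lincomycin libraries, against 13231 and 10214 in the MS libraries (log2 difference 2.32 ± 0.21, adjusted p = 1.46e-05). ACCD, a subunit of the fatty acid synthesis enzyme acetyl-CoA carboxylase, was called lower with 18718 and 17044 on lincomycin against 23047 and 21712 on MS, a call lost in 5 of the 8 fits that each left out 1 library.

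On the nuclear side, the machinery of plastid gene expression moved in parts. Of 20 genes in the plastid transcription list, 10 rose and 5 fell (median log2 difference 0.27). Among those that rose, FLN1, a complex-associated kinase-like protein, had 1061 and 1066 normalized counts in the lincomycin libraries, against 370.4 and 369.9 in the MS libraries (log2 difference 1.52 ± 0.11), and AT5G15700, annotated as a nucleus-encoded plastid RNA polymerase, had 341 and 289 on lincomycin against 121 and 63.7 on MS. The 5 that fell (3 without lincomycin replicate 3) included the sigma factors SIG4, SIG1 and SIG2, which guide the polymerase to its promoters, at log2 differences of -1.76, -1.55 and -1.04. All 26 plastid ribosomal protein genes tested fell (median log2 difference -1.15), by no more than PRPL12C with 1459 and 1505 on lincomycin against 3905 and 5327 on MS. Of 12 protein import genes, 4 rose (33.3%) and 2 fell (16.7%), where 16.5% of all genes tested rose and 18.7% fell. TOC33, a preprotein receptor of the outer envelope, rose to 1425 and 1333, against 695 and 630 on MS, whereas TIC62, an inner envelope protein tied to redox state, fell to 346 and 402, against 2098 and 2290.1. Without MS replicate 2 or lincomycin replicate 2, 2 import genes were called higher. HSP90.5, the plastid HSP90 chaperone, was the single riser among 22 chaperones and proteases (2 rose without MS replicate 1 or without lincomycin replicate 3), of which 12 fell, including the thylakoid protease FTSH1 at a log2 difference of -1.11 ± 0.12.

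GLK1 and GLK2, the regulators of greening, fell by less than the antenna median. GLK1 had 381 and 398 normalized counts in the lincomycin libraries, against 1274 and 1418 in the MS libraries, and GLK2 had 696 and 715 on lincomycin against 1583 and 1388 on MS, falls of 3.44-fold and 2.1-fold. BBX16, a B-box protein, fell to 0 and 0.653 normalized counts, against 90.9 and 42.5 on MS. The 3 regulators called higher (ABI4, HY5 and GNC) depended on single libraries: between 0 and 3 of the 13 regulators were called higher when 1 library was left out, 0 of them without lincomycin replicate 2 and 1 without lincomycin replicate 3, MS replicate 1 or wild-type lincomycin replicate 1.

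**Figure D2:**
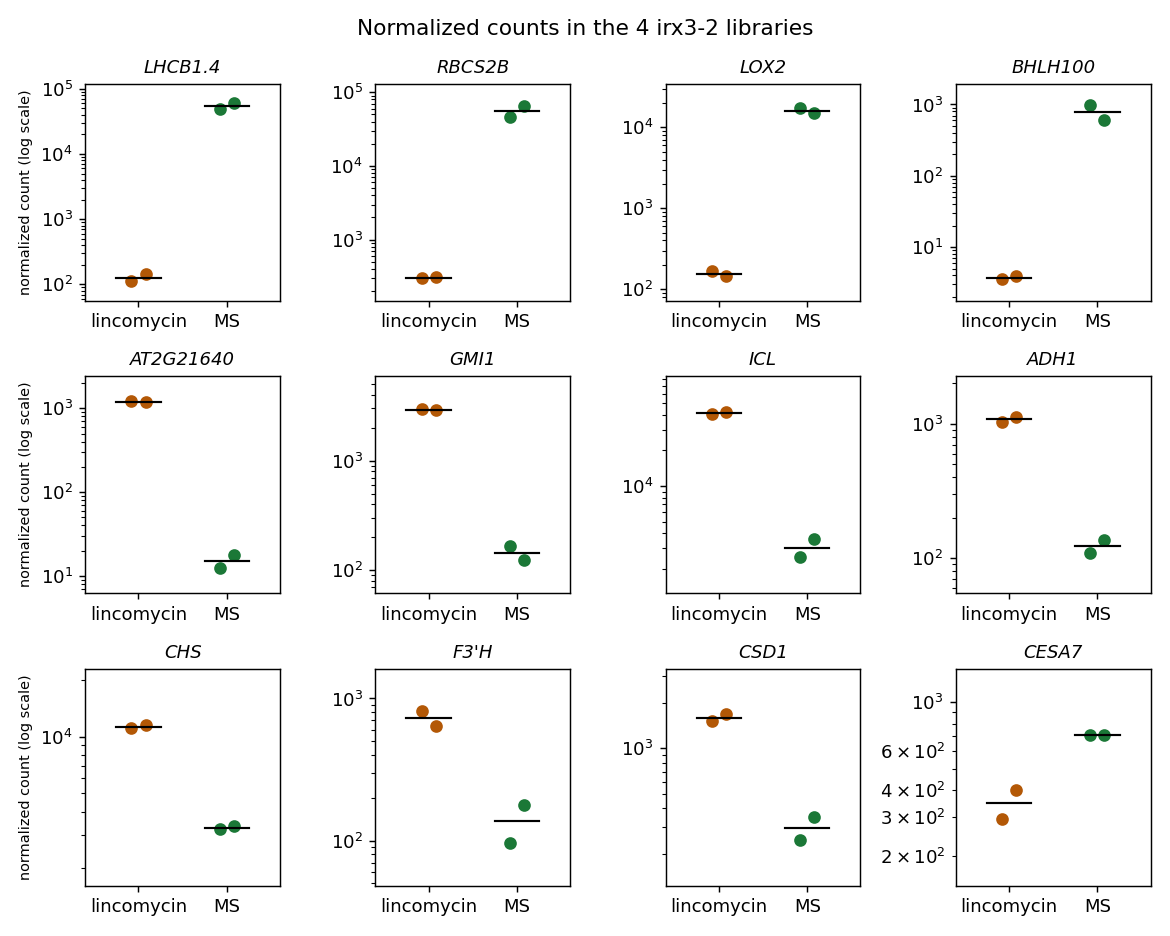
Normalized counts (y axis, log scale) of 12 genes in the 2 lincomycin libraries (left in each panel, orange) and the 2 MS libraries (right, green) of irx3-2, where each point is 1 library and the bar is the group mean. LHCB1.4, RBCS2B, LOX2 and BHLH100 were lower on lincomycin by 103-fold or more, and AT2G21640 and GMI1 were higher; CESA7 had 294 and 401 on lincomycin and 712 and 711 on MS.

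Markers of mitochondrial stress rose in part. When mitochondria are impaired, the membrane-bound transcription factors ANAC013 and ANAC017 move to the nucleus and bind a mitochondrial dysfunction motif in target promoters, searched here on both strands as CTTG, any 5 bases, CA, any 1 base and G. The list of this response had 16 genes tested, 8 higher (50%) and 3 lower (18.75%), with a median log2 difference of 1.24. Of all genes tested, 16.5% were higher and 18.7% lower. The minimum of 10 normalized counts was reached only in the lincomycin libraries by 2 of the 16 and only in the MS libraries by 0. The listed genes AOX1D and AT5G09570 were too low to be tested. Without lincomycin replicate 2, and likewise without replicate 3, 5 genes of the list were called higher. AT2G21640, annotated as a marker of oxidative stress, had 1212 and 1177 normalized counts in the lincomycin libraries, against 12.4 and 17.7 in the MS libraries, a 75.6-fold rise (log2 difference 6.24 ± 0.26, adjusted p = 3.07e-08). ANAC013 itself rose by 2.23 ± 0.23 on the log2 scale with 430.1 and 305 on lincomycin against 92.3 and 63.7 on MS, and the alternative oxidase AOX1A, which lets electrons bypass part of the respiratory chain, by 1.76 ± 0.12 with 1085 and 1037 on lincomycin against 324 and 301 on MS. ANAC017, which is regulated by release from the membrane, had 624 and 616 on lincomycin against 728 and 556 on MS and was not called. GSTU24 and GSTU25, detoxifying glutathione transferases on the same list, went the other way, at log2 differences of -1.54 and -1.88. WRKY40 was also called lower. ANAC013 and AOX1A were chosen after their values were seen. The promoter of AT2G21640, the strongest riser of the list, holds the motif once, with its first base 51 bases before the transcript start, and 1.75% of all 27443 protein-coding promoters hold it in their 250 bases. On this list 4 of 16 promoters held it, those of AT2G21640, ANAC017, NDB2 and NDB3, and only AT2G21640 among these was called. The 250 bases before the RefSeq start of the gene (TAIR10.1, chr2:9254128-9254377, plus strand) are given below with the motif in capitals.
AT2G21640: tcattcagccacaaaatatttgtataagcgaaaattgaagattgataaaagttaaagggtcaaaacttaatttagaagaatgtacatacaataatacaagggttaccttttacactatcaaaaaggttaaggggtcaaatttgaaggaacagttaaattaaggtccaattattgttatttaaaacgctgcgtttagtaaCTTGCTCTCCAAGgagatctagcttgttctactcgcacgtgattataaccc

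Heat shock genes and many mitochondrial loci were also higher. Of 8 cytosolic and mitochondrial heat shock genes tested, 7 rose (median log2 difference 1.90), and 4 genes of the list were called higher without lincomycin replicate 3. HSP90.1, a stress-induced cytosolic chaperone, had 738 and 525 normalized counts in the lincomycin libraries, against 101 and 85 in the MS libraries, and AT5G51440, a small HSP20-like chaperone, had 266 and 258 on lincomycin against 9.64 and 21.2 on MS. Among 75 protein-coding mitochondrial loci tested, 42 were higher and 1 was lower (2 without MS replicate 2), with a median log2 difference of 0.79, and without lincomycin replicate 2 the count of higher loci was 20. Of all genes tested, 16.5% were higher and 18.7% lower. Of the 75 loci, 7 reached the minimum of 10 normalized counts only in the lincomycin libraries and 0 only in the MS libraries. The filter itself thus favours higher calls among them. Over all mitochondrial loci the normalized counts summed to 172595 and 157561 in the lincomycin libraries, against 149589 and 135416 in the MS libraries.

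Genes of the DNA damage response rose. In plants the transcription factor SOG1 is activated by phosphorylation after DNA breaks, binds a palindrome of CTT and AAG with any 7 bases between them, and turns on cell-cycle inhibitors and repair genes. Of 20 genes on the DNA damage list tested, 14 were higher and 0 lower (median log2 difference 1.88), where 16.5% of all genes tested were higher. Here and in each list below where 0 genes were called in a direction in irx3-2, limma at an unadjusted p below 0.05 and edgeR's quasi-likelihood test also gave 0 in that direction, except for 1 ferritin gene that was higher at the unadjusted threshold and 1 marker of guard cells, epidermis and shoot meristem that was lower both at that threshold and with edgeR. The count of higher DNA damage genes stayed between 11 and 15 when any 1 library was left out. SOG1 itself had 121 and 127 on lincomycin against 153 and 133 on MS normalized counts and was not called. Its targets ANAC044 and ANAC085, transcription factors that hold the cell cycle in G2, had 453 and 471 on lincomycin against 11 and 17.7 on MS and 182 and 171 on lincomycin against 0 and 8.85 on MS. SMR7, a cyclin-dependent kinase inhibitor, had 346 and 304 normalized counts in the lincomycin libraries, against 8.26 and 17.7 in the MS libraries, a log2 difference of 4.63 ± 0.39 (adjusted p = 6.60e-06). All 3 were at least 10 times as abundant in each lincomycin library as in each MS library. Repair genes rose as well: log2 differences were 4.34 ± 0.16 for GMI1, 4.14 ± 0.21 for PARP2 and 2.82 ± 0.16 for BRCA1. CYCB1;1, a cyclin that also acts in repair, rose to 307 and 338 normalized counts, against 71.6 and 93.8 on MS. The repair genes and CYCB1;1 were chosen after their values were seen.

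Of 21 genes for cell division and DNA replication, 6 rose (28.6%) and 3 fell (14.3%), where 16.5% of all genes tested rose and 18.7% fell. The share that fell was below that of all genes. RNR1, the large subunit of ribonucleotide reductase, had 2727 and 2613 normalized counts in the lincomycin libraries, against 1152 and 1081 in the MS libraries (log2 difference 1.26 ± 0.09), and the replicative helicase subunits MCM5 and MCM3, which also rose, had log2 differences of 0.97 and 0.75. The 3 that fell were the cyclin gene CYCA1;1, with 86.6 and 123 on lincomycin against 229 and 221 on MS, and KNOLLE and CDC20.1. KNOLLE, a syntaxin of the cell plate, had 163 and 132 on lincomycin against 231 and 283 on MS, and CDC20.1, an activator of the anaphase-promoting complex, had 169.6 and 184 on lincomycin against 296 and 308 on MS. Without lincomycin replicate 2, 1 gene of the list was called lower. Ribosome assembly genes rose slightly, 6 of 9 with a median log2 difference of 0.55 and 3 without lincomycin replicate 2 or without replicate 3.

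The promoters of SMR7 and ANAC044 hold the palindrome, which is not particular to this list. The marked stretch of ANAC044 also fits the mitochondrial dysfunction motif, and that of AT2G21640 also fits the palindrome. The mitochondrial list held the palindrome in 3 of 16 promoters. The palindrome stood in 6 of the 20 promoters of the list, including those of SMR7, ANAC044 and PARP2, which were called higher, and of SMR4 and AT4G32700, which were not. It stood in 9.71% of all 27443 promoters and in 309 of the 3053 promoters of genes called higher. Positions are TAIR10.1, chr3:10231568-10231817, minus strand for SMR7 and chr3:228825-229074, plus strand for ANAC044, and capitals mark the palindrome, which starts 43 and 65 bases before the transcript starts.
SMR7: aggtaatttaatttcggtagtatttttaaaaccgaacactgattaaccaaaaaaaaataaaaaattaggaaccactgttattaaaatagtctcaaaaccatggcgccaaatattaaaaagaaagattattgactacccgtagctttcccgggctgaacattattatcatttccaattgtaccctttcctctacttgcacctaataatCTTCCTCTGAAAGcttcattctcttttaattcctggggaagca
ANAC044: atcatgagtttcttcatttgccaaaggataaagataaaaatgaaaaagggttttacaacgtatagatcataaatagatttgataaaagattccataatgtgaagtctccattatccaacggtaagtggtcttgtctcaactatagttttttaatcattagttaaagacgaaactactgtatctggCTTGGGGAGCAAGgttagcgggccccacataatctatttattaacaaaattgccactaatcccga

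Genes of stored-oil use and of fermentation rose together with these stress markers. The glyoxylate cycle lets a seedling turn fatty acids of its seed oil into sugar. ICL, isocitrate lyase, had 40746 and 42398 normalized counts in the lincomycin libraries, against 2499 and 3564 in the MS libraries, a 13.9-fold rise (log2 difference 3.80 ± 0.28, adjusted p = 2.28e-06). MLS, malate synthase, had 8633 and 6725 on lincomycin against 563 and 1182 on MS, and PCK1, which opens the way from the cycle to sugar, had 18985 and 18683 on lincomycin against 3628 and 3803 on MS. Together with MFP2 and KAT2 of fatty acid oxidation, 5 of the 6 genes of reserve mobilisation rose, and all 5 kept their call when any 1 library was left out. SDP1, the lipase that starts oil breakdown, was not called, with 692 and 788 on lincomycin against 610 and 664 on MS. Seed storage and lipid body transcripts had 0 of 12 called higher, where 16.5% of all genes tested were. Of the 12, 3 were lower (25%, near the 18.7% of all genes tested), among them the oleosin gene OLEO2 with 69.6 and 56.8 on lincomycin against 185 and 173 on MS. Without lincomycin replicate 3 and without MS replicate 2, 0 and 1 of them were called lower. MFP2, KAT2 and SDP1 were chosen after their values were seen.

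Fermentation genes, which are turned on when oxygen is short, rose in part. PDC1, pyruvate decarboxylase, had 1160.4 and 1058 normalized counts in the lincomycin libraries, against 38.6 and 115 in the MS libraries (log2 difference 4.03 ± 0.38, adjusted p = 1.76e-05). ADH1, alcohol dehydrogenase, had 1033 and 1127 normalized counts in the lincomycin libraries, against 110.2 and 136 in the MS libraries (log2 difference 3.13 ± 0.18, adjusted p = 3.93e-07). In both genes each lincomycin library exceeded each MS library several-fold. The oxygen-sensing enzyme gene PCO1 had 321 and 274 on lincomycin against 33 and 42.5 on MS, and of the 11 genes of the list 6 were higher and 0 lower in the full fit and in every fit without 1 library. The sucrose synthases SUS1 and SUS4 and the regulator HRE1, chosen after their values were seen, were not called, at log2 differences of 0.05, 0.03 and 0.27.

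Most genes of the iron deficiency response fell. In iron-poor plants the factor FIT and its partners of the bHLH subgroup, BHLH38, BHLH39, BHLH100 and BHLH101, switch on the root uptake machinery. Of 24 genes tested on this list, 21 were lower and 1 was higher (median log2 difference -3.03), and 18 to 21 were lower when 1 library was left out. For 9 of these 24 genes the minimum was reached only in the MS libraries. BHLH100 had 3.55 and 3.92 normalized counts in the lincomycin libraries, against 980.4 and 604 in the MS libraries, a log2 difference of -7.35 ± 0.30 (adjusted p = 2.40e-08). BHLH38, 31.9% of whose locus overlaps another annotated gene, had 4.97 and 0.653 on lincomycin against 499.8 and 223 on MS, and BHLH101 had 4.26 and 3.92 on lincomycin against 234 and 212 on MS. CYP82C4, a cytochrome P450 that makes iron-mobilising coumarins, had 0 and 1.31 on lincomycin against 218 and 154 on MS. FIT was not called, with 7.1 and 6.53 on lincomycin against 19.3 and 23 on MS. BGLU42, the single gene called higher, lost its call in 5 of the 8 fits that left out 1 library. Of the 4 ferritin genes, which store iron in plastids, 0 rose and FER1 and FER3 fell, FER3 with 764 and 729 on lincomycin against 1097 and 1761 on MS, and 1 fell without lincomycin replicate 2. FER1 overlaps another locus over 63.6% of its length and is uncertain. The G-box CACGTG stood in 4 of the 24 promoters of the list (BHLH100, BHLH38, BTS and OPT3). It stood in 6.49% of all 27443 promoters, in 9.35% of those of genes called lower and in 5 of 20 antenna promoters, so it is not particular to iron genes. The promoter of BHLH100, the gene of the list that fell most, is shown with it in capitals (TAIR10.1, chr2:17199455-17199704, minus strand; first base of the match 91 bases before the start).
BHLH100: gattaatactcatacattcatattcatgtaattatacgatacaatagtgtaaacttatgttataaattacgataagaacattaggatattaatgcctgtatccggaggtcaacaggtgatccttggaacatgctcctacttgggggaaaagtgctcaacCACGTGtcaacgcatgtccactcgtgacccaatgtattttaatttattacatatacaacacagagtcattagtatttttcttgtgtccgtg

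Genes for copper enzymes moved the other way. Plants short of copper lower their copper and zinc superoxide dismutases and raise copper uptake and the iron form of the enzyme. CSD1, the cytosolic copper and zinc superoxide dismutase, had 1509.5 and 1682 normalized counts in the lincomycin libraries, against 246 and 350.4 in the MS libraries (log2 difference 2.43 ± 0.16, adjusted p = 9.47e-07). CSD2, its plastid relative, had 1114 and 1270.3 on lincomycin against 235 and 437 on MS, and CCS, the chaperone that loads both with copper, had 594 and 661 on lincomycin against 201 and 186 on MS. COPT2, a copper uptake transporter, fell to 0 and 3.92 normalized counts, against 102 and 99.1 on MS, and FSD1, the iron form, chosen after its values were seen, fell to 2925 and 2822, against 5023 and 8426. On the whole scavenging list 7 of 17 genes rose and 8 fell, and the falls included the plastid peroxidases 2CPB, with 342 and 337 on lincomycin against 1811 and 2402 on MS, and TAPX, with 371 and 411 on lincomycin against 1917 and 2326 on MS.

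Most genes on the list of sulfur uptake and starvation and on the list of nitrogen uptake and assimilation fell. For sulfur, 11 of 12 genes were lower and 0 higher (median log2 difference -2.46). APR1, the key reductase of sulfate assimilation, had 103 and 83 normalized counts in the lincomycin libraries, against 1338 and 1023 in the MS libraries (log2 difference -3.65 ± 0.20), and LSU1, a gene turned on by sulfur starvation, had 24.1 and 28.8 on lincomycin against 295 and 221 on MS. For nitrogen, 7 of 10 were lower and 1 higher (median -1.37). GLN2, the plastid glutamine synthetase, fell to 2294 and 2439, against 39109 and 37445 on MS, whereas the cytosolic isoform GLN1;3 rose to 1368 and 1242, against 742 and 731. NIA2, nitrate reductase, had 4674 and 4903 on lincomycin against 25609.7 and 24551 on MS. Of 15 starch genes, 12 fell, among them APS1, a subunit of the enzyme that makes the glucose donor of starch, with 1265 and 1231 on lincomycin against 2692 and 2887 on MS.

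Most genes that make sulfur-rich defence compounds also fell. Of 15 aliphatic glucosinolate genes, 14 fell and 0 rose (median log2 difference -1.85): CYP79F1, which starts the core pathway, had 1.42 and 2.61 on lincomycin against 95 and 191 on MS, and CYP83A1, the next enzyme, had 83.7 and 93.4 on lincomycin against 527 and 754 on MS. Of 10 indole glucosinolate and camalexin genes, 9 fell, 5 of them without lincomycin replicate 3. Myrosinases, which release the toxic products, were mixed, with TGG1 at 7098 and 7305 on lincomycin against 19765 and 21988 on MS and BGLU23, the main β-glucosidase of ER bodies, at 74467 and 78551 on lincomycin against 33442 and 37778 on MS. BGLU18, a β-glucosidase that also frees abscisic acid from its conjugate, had 209 and 201 normalized counts in the lincomycin libraries, against 1773 and 1681 in the MS libraries (log2 difference -3.07 ± 0.13, adjusted p = 2.71e-08).

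Flavonoid synthesis rose. Flavonoids and anthocyanins are pigments and sunscreens made from phenylalanine, and chalcone synthase is the entry enzyme. Of 15 enzyme genes tested, 14 were higher and 0 lower (median log2 difference 1.32), where 16.5% of all genes were higher, and 9 were called without lincomycin replicate 2. CHS, chalcone synthase, had 11084 and 11491 normalized counts in the lincomycin libraries, against 3234 and 3350.2 in the MS libraries, a log2 difference of 1.78 ± 0.09 (adjusted p = 1.76e-07). F3'H, which adds the hydroxyl group that separates quercetin from kaempferol, had 810.5 and 638 normalized counts in the lincomycin libraries, against 96.4 and 177 in the MS libraries (log2 difference 2.45 ± 0.29). LDOX, an anthocyanin enzyme chosen after its values were seen, had 1134 and 862 on lincomycin against 571 and 334 on MS. Of 13 regulators 3 were higher and 3 lower (23.1% each), near the 16.5% higher and 18.7% lower of all genes tested: MYB111 had 97.2 and 56.8 on lincomycin against 35.8 and 15.9 on MS, TT8 had 87.3 and 64.7 on lincomycin against 38.6 and 14.2 on MS, and the repressor MYBL2 fell to 21.3 and 15.7, against 237 and 225 on MS. The 3 higher calls came to 0 without lincomycin replicate 2 and to 1 without lincomycin replicate 3 or MS replicate 2. The related phenylpropanoid branch toward lignin did not rise: 0 of 18 genes were higher and 7 were lower, among them 4CL1 with 564 and 618 on lincomycin against 1877 and 1920.2 on MS. CACGTG stood in 4 of the 15 flavonoid promoters (CHS, CHIL, DFR and UF3GT) and in 6.62% of the promoters of genes called higher. The CHS promoter is shown as that of the entry enzyme (TAIR10.1, chr5:4488226-4488475, plus strand; capitals mark the motif, first base 233 bases before the start).
CHS: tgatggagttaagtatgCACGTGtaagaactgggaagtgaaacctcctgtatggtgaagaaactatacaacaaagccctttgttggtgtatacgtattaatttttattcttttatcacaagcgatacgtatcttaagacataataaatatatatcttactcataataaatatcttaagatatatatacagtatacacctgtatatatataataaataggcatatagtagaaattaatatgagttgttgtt

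**Figure D3:**
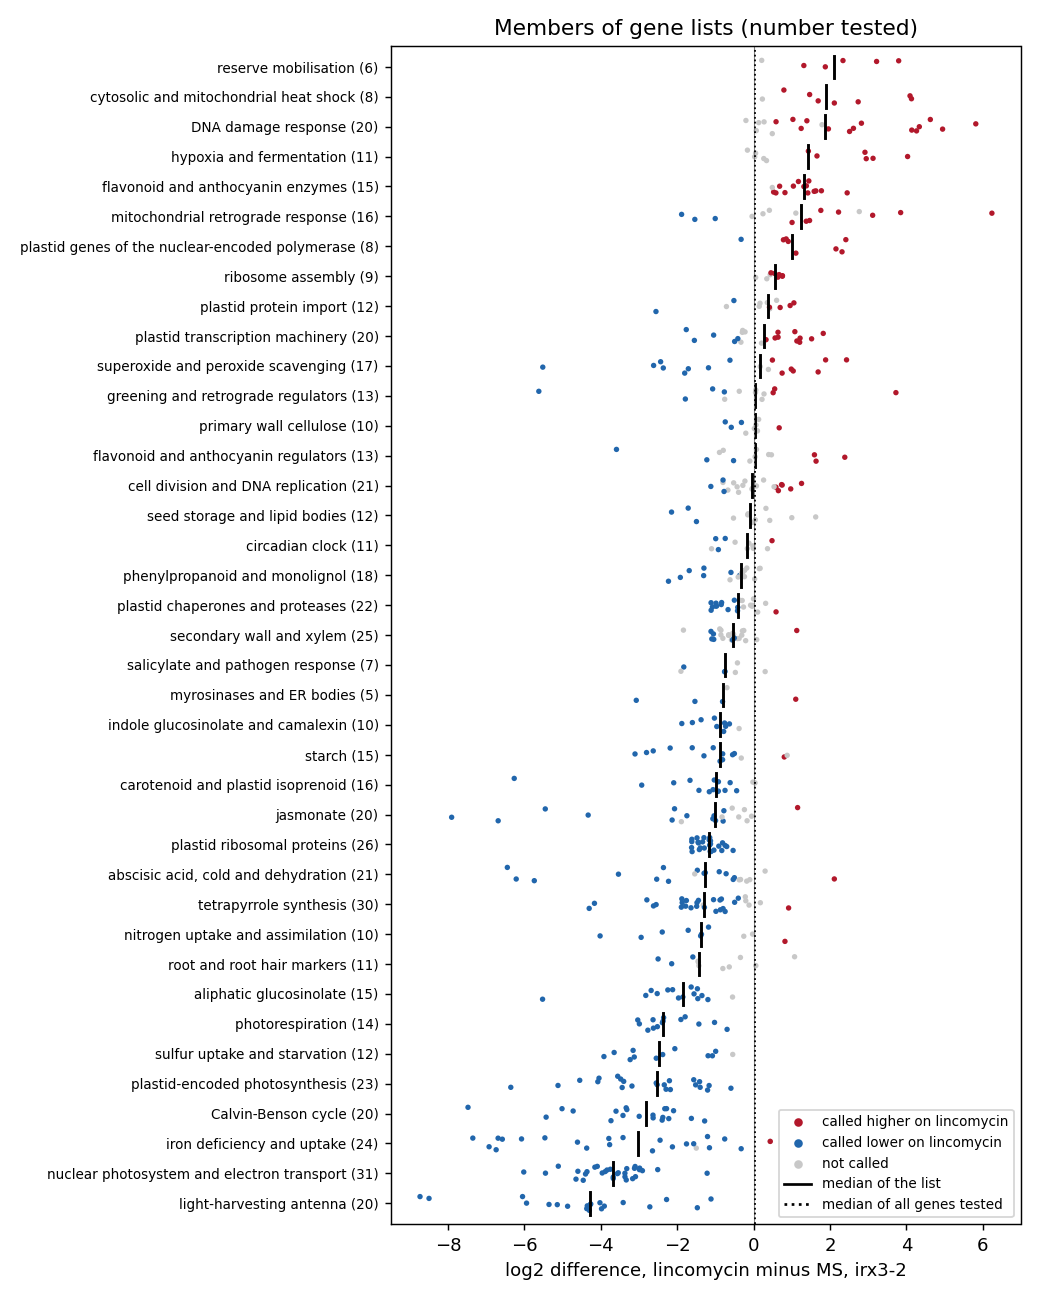
Every point is 1 tested gene of a list, placed by its log2 difference, lincomycin minus MS, in irx3-2 (x axis), with lists ordered by their median (black bar) and the number tested in brackets; red points were called higher, blue lower and grey not called, and the dotted line is the median of all genes tested, 0.04. Reserve mobilisation (median 2.11), heat shock (1.90) and DNA damage (1.88) stand at the top, and iron (-3.03) stands among the photosynthesis lists at the bottom. Ferritins, phloem markers, sugar starvation and dormancy genes, markers of guard cells, epidermis and shoot meristem, and reference genes are not shown.

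Jasmonate genes and genes of the cold and dehydration response fell. For jasmonate, 12 of 20 genes were lower and 1 higher. AOC2 and LOX2, plastid enzymes of jasmonate synthesis, had 9.94 and 17 on lincomycin against 3200 and 3511 on MS and 167 and 144 on lincomycin against 17354 and 14849 on MS, whereas ACX1, the peroxisomal oxidase of the same pathway, rose to 2336 and 2148, against 978 and 1035 on MS. Among genes of abscisic acid, cold and dehydration, 14 of 21 fell (median log2 difference -1.26): COR15A, a plastid protein that protects membranes from frost, had 1.42 and 2.61 on lincomycin against 143 and 172 on MS, and COR413IM1, an inner envelope protein, had 5.68 and 7.84 on lincomycin against 527 and 612 on MS. PRODH1, which degrades proline in mitochondria, was the single riser of that list, with 3155 and 3223 on lincomycin against 644 and 839 on MS.

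The mutated gene itself fell on lincomycin. CESA7 had a log2 difference of -1.05 ± 0.16 (adjusted p = 4.69e-04), and both lincomycin libraries lay below both MS libraries. Of 25 genes of the secondary wall and xylem, 7 were lower (28.0%, against 18.7% of all genes tested) and 1 was higher (0 without MS replicate 2 or without lincomycin replicate 2; median -0.55), and the count of lower genes ranged from 2 to 7 when 1 library was left out, with 2 without lincomycin replicate 2, 3 without lincomycin replicate 3, and 4 without MS replicate 2, wild-type lincomycin replicate 1 or wild-type lincomycin replicate 3. CESA4 and CESA8, which form the complex with CESA7 and were chosen after their values were seen, had 215 and 217 on lincomycin against 275 and 350.4 on MS and 114 and 126 on lincomycin against 114 and 179 on MS, and only CESA4 was called. Of 10 genes of primary wall cellulose, 1 rose (10%) and 3 fell (30%), where 16.5% of all genes tested rose and 18.7% fell. CESA5 rose, with 3927 and 3869.6 on lincomycin against 2601 and 2301 on MS, and CESA2 was among those that fell, with 1318 and 1285 on lincomycin against 2236 and 2113 on MS.

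In large gene families, counts of lower genes often exceeded counts of higher ones, where 18.7% of all genes tested were lower and 16.5% higher. Of 50 SAUR genes, small auxin-responsive genes of cell expansion, 23 were lower (median log2 difference -1.07). The minimum of 10 normalized counts was reached only in the MS libraries by 3 SAUR genes and only in the lincomycin libraries by 1. These counts were 15 and 1 for the 133 cytochrome P450 genes and 4 and 0 for the 36 glutathione transferases. The filter itself thus favours lower calls in these families. Of 22 XTH genes, whose enzymes cut and rejoin xyloglucan, 11 were lower and 3 higher, with 5 lower without lincomycin replicate 2 and 7 without lincomycin replicate 3 or MS replicate 2. Cytochrome P450 genes had 50 of 133 lower and 12 higher, 7 without lincomycin replicate 3, and glutathione transferases 16 of 36 lower and 2 higher, 4 without wild-type MS replicate 2 or without replicate 3. NAC transcription factors, which include ANAC044 and ANAC085, had 12 of 49 higher (24.5%) and 7 lower (14.3%; 4 genes without lincomycin replicate 2), near the 16.5% and 18.7% of all genes tested.

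Markers of leaf and root tissue were both present in these whole seedlings, and the antenna list stood for mesophyll. Of 11 root and root hair markers tested, 3 were lower (27.3%, against 18.7% of all genes tested) and 0 higher (against 16.5%), with a median log2 difference of -1.43. PHT1;1, a phosphate transporter, was 1 of the lower markers, with 28.4 and 49 on lincomycin against 186 and 152 on MS. The count of lower markers was 1 without lincomycin replicate 2 or MS replicate 2 and 5 without MS replicate 1. Iron uptake genes are expressed in the same organ, and the part of root tissue in their fall was not tested. Among 4 phloem markers 1 was lower, 2 without MS replicate 1, and among 5 markers of guard cells, epidermis and shoot meristem 1 was higher, a count that was 0 or 2 in each of the 8 fits without 1 library. Of 8 reference genes 3 were higher, 2 lower and 3 not called, with 1 higher and 1 lower without lincomycin replicate 2 or without replicate 3 and 1 lower without MS replicate 2. GAPC1, PP2AA3 and UBQ10 had log2 differences of 1.15 ± 0.13, 0.57 ± 0.17 and 0.37 ± 0.11, and ACT2 and ACT7 of -1.13 ± 0.12 and -0.30 ± 0.09. TIP41, SAND and EF1A, at -0.04 ± 0.16, 0.21 ± 0.13 and 0.10 ± 0.12, were not called.

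The response was then set against the same treatment in wild type. Wild-type seedlings had 5828 genes called among the same 19483 (29.9%), and 4158 genes were called in both genotypes with the same direction, 60.7% of the irx3-2 calls and 71.3% of the wild-type calls. The test of the difference between the genotypes, which decides whether a response is particular to irx3-2, called 133 genes (0.683%), 72 with a more positive (0.37%) and 61 with a more negative response in irx3-2 (0.313%). That number is sensitive to single libraries: it was 13 and 11 without wild-type lincomycin replicates 1 and 3, 27 and 23 without irx3-2 lincomycin replicates 2 and 3, 72 and 70 without wild-type MS replicates 2 and 3, and 316 and 365 without irx3-2 MS replicates 1 and 2. Over all genes the response was more positive in irx3-2 for 10223 of 19483 (median 0.03 on the log2 scale).

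Among the gene lists, flavonoid enzymes had the most genes past the test of the difference. The 4 ferritin genes had a larger median difference between the genotypes, 1.36 against 1.26 for flavonoid enzymes, but 0 of them passed. The median log2 difference of the flavonoid enzymes was 1.32 in irx3-2 and -0.17 in wild type. All 15 responded more positively in irx3-2, and for 8 of the 15 the difference between the genotypes passed the test. That count was 0 without irx3-2 lincomycin replicate 2 or wild-type lincomycin replicate 3, 1 without irx3-2 lincomycin replicate 3 or wild-type lincomycin replicate 1, and 4 without wild-type MS replicate 2. CHS rose in both genotypes, by 1.78 ± 0.09 in irx3-2 and 1.07 ± 0.09 in wild type, whereas LDOX rose by 1.18 ± 0.26 in irx3-2 but had a log2 difference of -1.71 ± 0.26 in wild type. F3'H had 810.5 and 638 on lincomycin against 96.4 and 177 on MS in irx3-2, and 97.7 and 107 on lincomycin against 144 and 91.7 on MS in wild type, a difference between the responses of 2.62 ± 0.42 (adjusted p = 0.0218). The MS libraries of both genotypes and the wild-type lincomycin libraries lay in 1 range for this gene, and only the irx3-2 lincomycin libraries lay above it.

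Fermentation genes leaned the same way with fewer calls. Genes of reserve mobilisation (4 of 6 more positive in irx3-2) and of DNA damage (11 of 20) were mixed. In the fermentation list 10 of 11 genes responded more positively in irx3-2 (median log2 difference 1.44 in irx3-2 and 0.31 in wild type), and ADH1 passed the test of the difference, at 2.24 ± 0.26 (adjusted p = 0.00531); PDC1 did not, at 2.23 ± 0.54 (adjusted p = 0.101). The lean of the fermentation list varied with single libraries. Its median difference between the genotypes was 0.90 in the full fit. It was 0.16 without wild-type MS replicate 2, 0.39 without irx3-2 MS replicate 1 and 1.29 without irx3-2 MS replicate 2. In reserve mobilisation PCK1, MFP2 and KAT2 passed, PCK1 at 1.11 ± 0.13, while ICL, at -1.24 ± 0.39, did not. These calls also depended on single libraries: without wild-type lincomycin replicate 1, and likewise without replicate 3, 0 genes of both lists passed. The DNA damage list had medians of 1.88 in irx3-2 and 1.91 in wild type, and for 0 of its 20 genes did the difference pass with limma or edgeR (3 at an unadjusted p below 0.05, lowest adjusted p of the list 0.101, PARP2). That a difference misses the threshold does not show that the responses were alike.

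**Figure D4:**
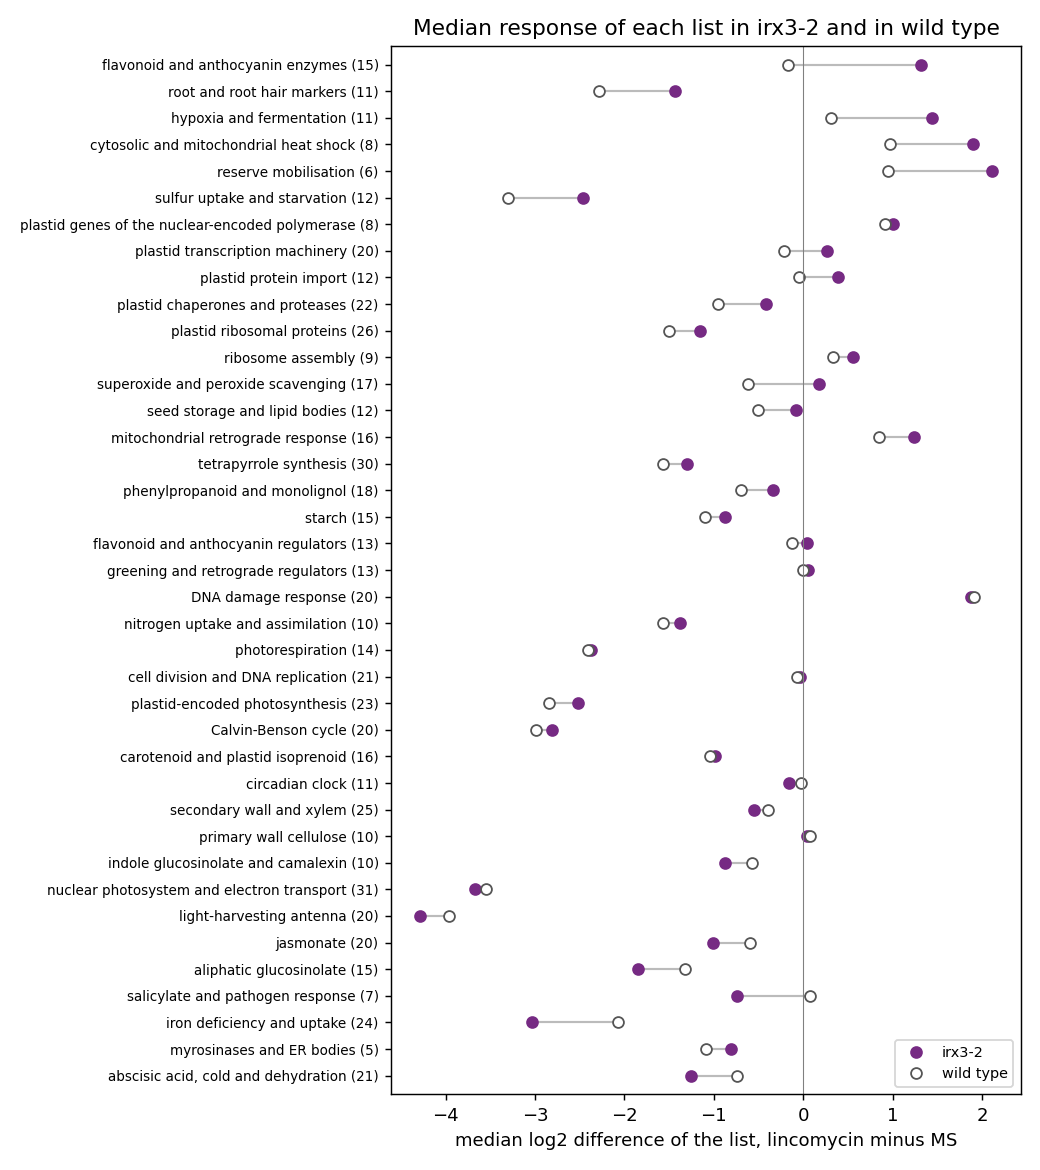
Median log2 difference of the lists shown, lincomycin minus MS (x axis), in irx3-2 (filled purple) and in wild type (open). The number of genes tested is in brackets, and lists are ordered by the median difference between the genotypes. Ferritins, phloem markers, sugar starvation and dormancy genes, markers of guard cells, epidermis and shoot meristem, and reference genes are not shown. Flavonoid enzymes stand at 1.32 in irx3-2 and -0.17 in wild type, whereas the photosynthesis lists lie close together in both.

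The plastid lists did not move in 1 direction. Antenna genes had medians of -4.29 in irx3-2 and -3.97 in wild type and a more positive response in 3 of 20, and LHCB1.4 passed the test of the difference, at -1.06 ± 0.18 (adjusted p = 0.0308). For genes that build and maintain the plastid the medians were higher in irx3-2 than in wild type, with few or no single genes past the test. The plastid transcription list had medians of 0.27 in irx3-2 and -0.21 in wild type. Protein import had 0.39 in irx3-2 and -0.04 in wild type, with 0 of 12 genes past the test (5 at an unadjusted p below 0.05). Plastid ribosomal proteins had medians of -1.15 in irx3-2 and -1.50 in wild type, with a more positive response in all 26 tested but 0 single genes past the test with limma or edgeR (12 at an unadjusted p below 0.05). Chaperones and proteases had -0.42 in irx3-2 and -0.96 in wild type, with 4 of 22 past the test (0 without wild-type lincomycin replicate 1, wild-type lincomycin replicate 3 or irx3-2 lincomycin replicate 2, 1 without wild-type MS replicate 2, wild-type MS replicate 3 or irx3-2 lincomycin replicate 3, and 6 and 7 without irx3-2 MS replicates 1 and 2), and FLN1 was the single gene past it in the transcription list, at 1.04 ± 0.15 (adjusted p = 0.0161). The transcription list had 0 genes past it without wild-type MS replicate 3, wild-type lincomycin replicates 1 or 3 or irx3-2 lincomycin replicates 2 or 3, and 3 and 2 without irx3-2 MS replicates 1 and 2. The directions of these list medians were the same with edgeR and with nuclear loci rescaled alone.

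The iron regulators BHLH100 and BHLH101 fell further in irx3-2 than in wild type. BHLH100 had a log2 difference of -7.35 ± 0.30 in irx3-2 and -4.18 ± 0.30 in wild type (difference -3.16 ± 0.42, adjusted p = 0.0102), and BHLH101 of -5.46 ± 0.32 and -2.18 ± 0.32 (difference -3.28 ± 0.45, adjusted p = 0.0107), and each lost that call in 4 of the 8 fits without 1 library. BHLH100 had 3.55 and 3.92 normalized counts in irx3-2 on lincomycin against 980.4 and 604 on MS, and 36.5 and 29.5 in wild type on lincomycin against 755 and 498 on MS. FRO2, the root iron reductase, had -4.37 ± 0.52 in irx3-2 and -5.96 ± 0.52 in wild type, and CYP82C4 had -6.92 ± 0.57 and -8.15 ± 0.57; neither difference passed the test (adjusted p = 0.394 and 0.581). FRO2 was chosen after its values were seen.

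**Figure D5:**
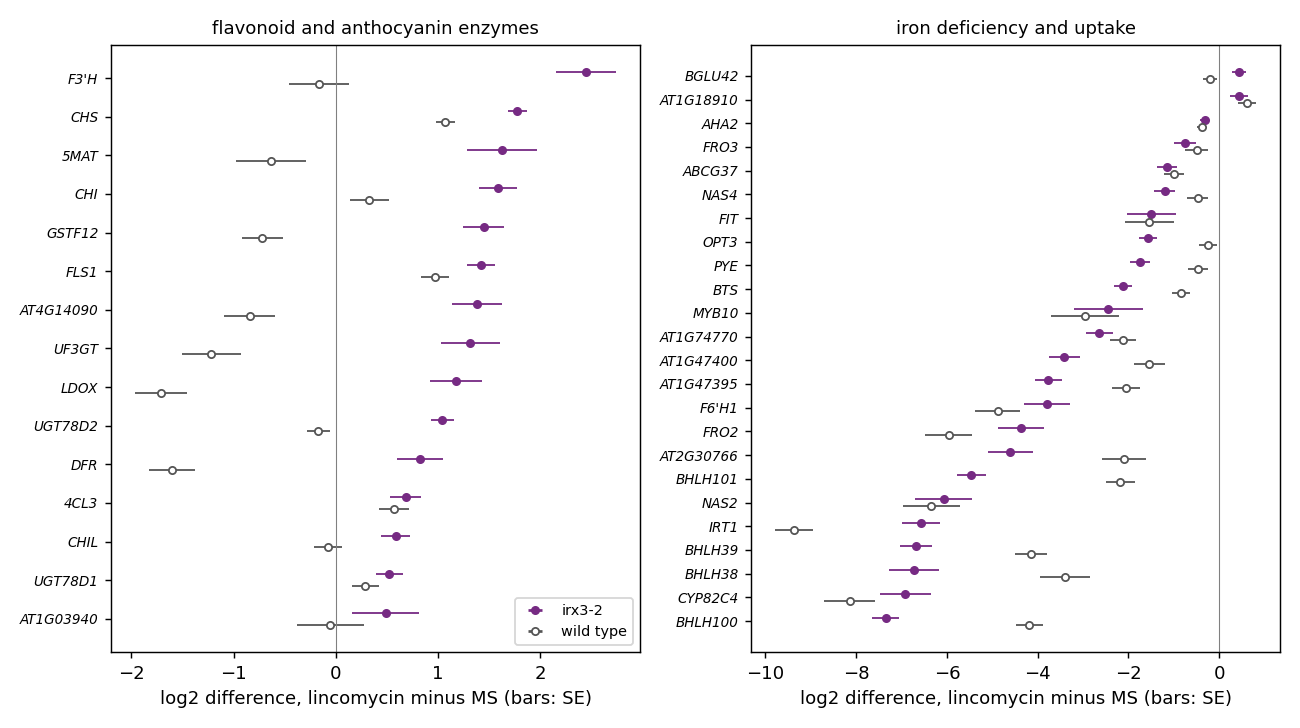
Log2 difference, lincomycin minus MS (x axis, bars are SE), of each tested gene of the flavonoid enzyme list (left) and the iron list (right) in irx3-2 (filled purple) and wild type (open). All 15 flavonoid genes lie further right in irx3-2, and BHLH100, BHLH101, BHLH38 and BHLH39 lie further left.

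Single genes of several kinds had large differences between the genotypes. NAC036, a NAC transcription factor, had the largest fitted difference of the 133 genes called (-6.42 ± 0.56, adjusted p = 9.35e-04), with 72.4 and 55.5 on lincomycin against 33 and 35.4 on MS in irx3-2, and 153 and 158 on lincomycin against 0 and 0 on MS in wild type. Its size depends on the pseudocount, since both wild-type MS libraries had 0, and the call held when any 1 library was left out. NAC036 was chosen after its values were seen, since its mean over the irx3-2 libraries was just under the minimum of 50 normalized counts set for the other genes named here. BRX1-2, a nucleolar protein of large ribosomal subunit maturation, had 309 and 318 on lincomycin against 208 and 219 on MS in irx3-2, and 23.5 and 22.1 on lincomycin against 294 and 295 on MS in wild type, a difference of 4.19 ± 0.24 (adjusted p = 5.15e-05). AT2G07739, annotated as a Ycf1 protein, had 478 and 410.4 on lincomycin against 212 and 249.5 on MS in irx3-2, and 17.1 and 18.4 against 205 and 306 in wild type. In both genes the wild-type lincomycin libraries stood far below the other 6, and both calls held when any 1 library was left out. ABR, a late embryogenesis abundant protein, had 1522 and 806 on lincomycin against 677 and 807 on MS in irx3-2, and 43 and 62.1 against 561 and 537 in wild type. BGLU18 fell further in irx3-2, at -3.07 ± 0.13, than in wild type, at -1.14 ± 0.13 (difference -1.93 ± 0.18, adjusted p = 0.00152). Of the 10 genes with the largest differences above that minimum, 3 kept their call under every alternative tried.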

How the data were processed

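RNA was sequenced from whole seedlings with a total RNA library kit, per the labels' protocols. The submitters' processing notes name TopHat2 2.1.1, featureCounts, DESeq2, FastQC and Trimmomatic, in no stated order, and the TAIR10 build; the strand setting and the handling of reads with several matches are not given in the sources used here. The authors deposited 4 tables of normalized counts, a depth-scaled signal with identical columns in each, beside their own log2 fold changes and adjusted p-values, per the file headers. Every deposited value was a whole multiple of what 1 read is worth (100% within 0.01), so reads per library could be recovered.

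The main test was limma 3.58.1 (R 4.3.3) with a mean-variance trend on log2(normalized count + 1) over all 8 libraries as 4 group means, with 4 residual degrees of freedom, Benjamini-Hochberg adjustment over 19483 genes and a threshold of 0.05. Fold changes are on that scale, which understates low genes. The difference between the genotypes was the contrast of the 2 responses in the same fit. In simulated data for irx3-2 lincomycin against MS, 19483 genes shared 1 fixed spread, and far fewer were changed than were called here. There limma recovered 76.3% of 2-fold and 100% of 4-fold changes and called 5 unchanged genes. The recovered shares cover only changed genes with a mean of at least 50 normalized counts on MS. The simulation does not give the recovery for lower or more variable genes. Alternatives were edgeR 4.0.16 (quasi-likelihood, TMM) on recovered reads, nuclear loci rescaled alone, other pseudocounts, no filter, the 4 irx3-2 libraries alone, each library left out and, added after the data were seen, the replicate number as a block. The 44 gene lists (687 genes, 643 tested) were chosen with earlier results of these data known. Genes named are the 10 largest rises and falls (mean of at least 50 normalized counts), up to 3 called members a list in each direction, the 5 most abundant nuclear genes a group, the 5 largest differences between the genotypes in each direction (same minimum), CESA7 and reference genes; exceptions are marked. Promoters are from the RefSeq annotation of TAIR10.1, with 6 motifs searched on both strands, of which 3 are reported.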

Additional observations from a re-analysis of the deposited data

Results flagged for a closer look

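For 19 of the 193 genes named by the rule, the response to lincomycin differed between irx3-2 and wild type by limma's test of the difference itself (adjusted p at most 0.05), given here as the irx3-2 response minus the wild-type response on the log2 scale. The response was more negative in irx3-2 for LHCB1.4 (-1.06), BHLH100 (-3.16), BHLH101 (-3.28), BGLU18 (-1.93), WRKY70 (-2.05), the defensin-like gene AT1G13609 (-4.58), MLP328 (-3.77), AT2G00920 (-3.66) and AT1G07373 (-3.20). WRKY70, a factor of salicylate defence, had 45.4 and 45.1 on lincomycin against 89.5 and 65.5 on MS in irx3-2, and 202 and 148 on lincomycin against 70.5 and 68.4 on MS in wild type. MLP328, a major latex protein-like gene, had 4.26 and 2.61 on lincomycin against 503 and 296 on MS in irx3-2, and 58.3 and 59.6 against 472 and 319 in wild type, so that both genotypes were lower on lincomycin.

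The response was more positive in irx3-2 for FLN1 (1.04), F3'H (2.62), CHS (0.71), PCK1 (1.11), ADH1 (2.24), AT2G07739 (4.69), MSL9 (4.43), BRX1-2 (4.19), ABR (3.97) and IMP4 (3.66). IMP4, a nucleolar protein of rRNA processing, had 384 and 361 on lincomycin against 176 and 308 on MS in irx3-2, and 40.6 and 17.2 against 208 and 227 in wild type. MSL9, a mechanosensitive channel-like protein, had 241 and 167 on lincomycin against 27.5 and 81.4 on MS in irx3-2, and 17.1 and 16 against 99.6 and 81.5 in wild type. For these 2 genes, as for BRX1-2 and ABR, the wild-type lincomycin libraries were the lowest of the 8. The calls for BGLU18, AT2G07739, BRX1-2 and ABR held in all 8 fits without 1 library, whereas those for LHCB1.4, CHS and WRKY70 were lost in 6 of the 8. No explanation was tested.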

How the results depend on the processing

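The count of genes called in irx3-2 (6848) was 5786 to 7124 under the 6 alternatives other than the replicate block that kept all libraries of their fit, with edgeR at 6980 (3170 higher and 3810 lower), and the median log2 difference of all genes was 0.14 without the filter. Leaving out 1 library gave 3899 to 7279 genes called, 1451 to 3643 higher, 2448 to 3769 lower and 2500 to 3866 called and at least 2-fold. The lowest of these came without irx3-2 lincomycin replicate 2, and the count of higher genes was 1850 without replicate 3. The count of genes whose response differed between the genotypes (133) was 29 without the filter, where 32027 loci shared the adjustment, 128 to 189 under the others except the replicate block and 11 to 365 when 1 library was left out; the fit of the 4 irx3-2 libraries alone gives no such test. Of the 193 named genes, 149 kept direction and call under every alternative, none changed direction while called, and 3 of 10 named differences between the genotypes kept their call under every alternative. The irx3-2 groups share only 1 replicate number, so the numbers were tried as a replicate block across all 8 libraries, which leaves 2 residual degrees of freedom and was chosen after seeing the data. Deviations from the group means correlated between -0.15 and 0.13 in the 7 same-numbered pairs of libraries, over 0.1 in 1 of them, so the libraries were taken to share only a number. With the block, 5471 genes were called in irx3-2 (2495 higher and 2976 lower, 3211 of all at least 2-fold), 5217 of them also called without it, and the response of 23 genes differed between the genotypes. With 2 libraries a group and 4 residual degrees of freedom, a fit without 1 library has a lone sample that is assumed to vary like the other groups. Depth limits the lowest genes, and nuclear loci were read less deeply on MS. Of the genes called higher, 43 had 0 reads in both MS libraries. Of those called lower, 10 had 0 reads in both lincomycin libraries.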

Other observations

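A pair of gene families stood out after the values were seen. Of 17 DUF295 proteins tested, out of 73 so annotated, 10 were higher on lincomycin and 1 was lower (0 without irx3-2 lincomycin replicate 2, lincomycin replicate 3 or MS replicate 2). Of these 17, 9 reached the minimum of 10 normalized counts only in the lincomycin libraries and 1 only in the MS libraries, so the filter itself favours higher calls here. Of 49 aminoacyl-tRNA synthetase genes tested, which charge tRNAs in the cytosol and the organelles, 16 were higher and 1 lower in irx3-2, and 8 were higher and 12 lower in wild type. In irx3-2 that is 32.7% higher and 2.04% lower, where 16.5% and 18.7% of all genes tested were. In wild type, 2435 of all 19483 genes tested were higher and 3393 lower. The wild-type counts of this family were thus near the shares of all genes. In irx3-2, 9 of the 49 were higher without lincomycin replicate 2, and 2 were lower without any 1 of the 4 MS libraries. The response was more positive in irx3-2 for 43 of the 49 (median difference between the genotypes 0.24 on the log2 scale), and for 0 of them did that difference pass the test with limma or edgeR (18 at an unadjusted p below 0.05).

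Transposable element genes had 38 of 157 tested loci higher and 7 lower, 15 higher without irx3-2 lincomycin replicate 2 and 22 without replicate 3, and 4 lower without irx3-2 lincomycin replicate 2 or MS replicate 1. In the full fit 24.2% of the 157 were higher and 4.46% lower, where 16.5% and 18.7% of all genes tested were. Of the 157, 25 reached the minimum only in the lincomycin libraries and 7 only in the MS libraries, so the filter itself favours higher calls here too. The 2 lincomycin libraries also held more loci with 1 to 3 reads than MS replicate 1, 3466 and 4182 against 1798, while MS replicate 2 held 3595, and the part of this in the count was not tested.

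Of the listed genes outside the test, 6 had 0 normalized counts in all 8 libraries: LHCB1.5, AT4G36810, PRPS17, HSP17.4, SMR5 and MYC2. Other annotated loci overlap 68.4% to 100% of the length of each, so these values do not show that the genes were silent.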
